A study of Mus musculus with 4 samples.

Results

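The genes described here are 8 epithelial genes of the mouse gonad surface, out of 19321 genes in the table: the uroplakins Upk3b and Upk1b, the tetraspan gene Tm4sf5, the keratins Krt7, Krt8, Krt18 and Krt19, and Msln (mesothelin). They were chosen by name. All 8 were present in the table. Their transcripts were counted in single cells from XX gonads of C57BL/6 mouse embryos at 4 stages a day apart (embryonic days, E11.5 to E14.5), with no treatment or genetic change named. The gonads were dissociated with TrypLE and captured with the droplet-based 3′ chemistry of 10x Genomics, version 2, which counts unique molecular identifiers (UMIs). There was 1 library per stage, and nothing in the sources says how many embryos each pooled, so stage and library cannot be told apart. Values given as a run of 4 follow the order of the stages. No difference could be tested across samples and no p-value is given. Ranges in parentheses are exact 95% intervals that cover counting error only, and PCR or dissociation effects are outside them.

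After removal of cells rich in mitochondrial transcripts and of called doublets, 18970 of 19387 cells remained, between 4693 and 4794 per stage, with library medians between 11361 and 14258 UMIs. Of the cells, 1.83% carried a barcode found in more than 1 library. Cells were sorted into classes by a few genes each. Mesothelial cells had UMIs of at least 2 of Upk3b, Tm4sf5 and Hpgd. Supporting cells, taken as the pre-granulosa lineage, had at least 3 of Fst, Wnt4, Wnt6, Irx3 and Runx1. Interstitial cells had Col1a1 together with Tcf21, and germ cells at least 3 of Dazl, Ddx4, Dnd1, Mael, Dppa5a and Mov10l1. A cell that met exactly 1 rule entered that class. This gave 792, 639, 426 and 322 mesothelial cells and 2107, 2132, 1739 and 712 supporting cells. There were 289, 207, 605 and 208 interstitial cells and 229, 610, 717 and 2285 germ cells. The median mesothelial cell had 15396.5, 13354, 11906.5 and 9807.5 UMIs.

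The mesothelial label was checked against 7 markers that no rule reads. Lrrn4, Aldh1a2 and Bnc1 were at least 2-fold above the other 3 classes at every stage, Muc16 joined them at E13.5 and E14.5, and Gpm6a at E14.5. Lhx2 and Nkain4 were not raised in these cells, and Nkain4 was highest in interstitial cells at E11.5, E13.5 and E14.5. Lhx2 was at least 2-fold above the other 3 classes in germ cells at E14.5. Of the 8 interstitial markers outside the rule, all were detected in mesothelial cells, with a sum of 733 to 994 CPM (UMIs of a gene per 1000000 UMIs of the class) against 1680 to 2430 CPM in interstitial cells. The 6 markers of mesonephric epithelium summed to 13.2 to 28.8 CPM, with 2 or 3 of them at 0. The rule reads Upk3b and Tm4sf5, so these 2 genes are given below in cells chosen without them. The other 6 genes are read by no rule.

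Mesothelium is the simple epithelium that lines body cavities and covers organs, and on the gonad it continues as the coelomic, later surface, epithelium. Keratins are intermediate filament proteins that assemble only as pairs of a type II and a type I chain, and KRT8 with KRT18 is the first such pair of simple epithelia, to which KRT7 (type II) and KRT19 (type I) are added in many ducts and linings. Uroplakins are membrane proteins best known from the bladder lining. UPK1B is a tetraspanin, UPK3B is a single-pass uroplakin found in mesothelium, and TM4SF5 belongs to a separate family of proteins with a similar membrane layout. Mesothelin is a surface glycoprotein of mature mesothelium.

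In the GENCODE annotation of the mm10 build, 3 of the 4 keratin genes lie on chromosome 15, with Krt8 and Krt18 nearer each other than Krt7. Krt7 spans chr15:101411043-101430313 on the plus strand, Krt8 spans chr15:101996698-102004482 on the minus strand, and Krt18 spans chr15:102028180-102032027 on the plus strand. Krt8 and Krt18 point away from each other, their 5′ ends are 23698 bases apart, and 0 annotated genes lie wholly between them. Krt19 lies apart at chr11:100140810-100148665. Upk3b lies at chr5:136038496-136046487, Upk1b at chr16:38773184-38800328, Tm4sf5 at chr11:70505244-70511178 and Msln at chr17:25748613-25754378, and all 8 are protein-coding. Krt7 overlaps Gm671 and Krt8 overlaps Gm36026, each on the opposite strand. Krt8 also has a named pseudogene, Krt8-ps. The sources used here do not state how such reads were assigned, so the Krt7 and Krt8 counts carry that uncertainty.

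RefSeq start sites with upstream sequence (GRCm38.p6, the mm10 build) were given for 5 of the 8 genes. From the 250 bases before each start, the stretch outside any GENCODE exon is shown for the divergent pair Krt8 (110 bases) and Krt18 (214 bases), whose levels are compared below, and for Upk3b (250 bases) and Tm4sf5 (220 bases), the 2 members that mark the class. Each runs 5′ to 3′ on the strand of its gene, and capitals mark matches to 6 motifs searched on both strands. These were the TATA box (TATAAA), the CAAT box (CCAAT), the GC box (GGGCGG), the AP-1 site (TGANTCA), a site read by GATA factors (AGATAA) and a site read by TEAD factors (GGAATG).
Krt8 (chr15:102004483-102004592, minus strand): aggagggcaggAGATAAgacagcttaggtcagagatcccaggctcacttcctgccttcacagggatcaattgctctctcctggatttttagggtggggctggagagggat
Krt18 (chr15:102027966-102028179, plus strand): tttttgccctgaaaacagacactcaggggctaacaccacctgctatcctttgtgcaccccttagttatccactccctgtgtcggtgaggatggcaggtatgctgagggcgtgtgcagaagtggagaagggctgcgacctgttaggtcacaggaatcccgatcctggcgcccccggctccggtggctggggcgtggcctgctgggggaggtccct
Upk3b (chr5:136038246-136038495, plus strand): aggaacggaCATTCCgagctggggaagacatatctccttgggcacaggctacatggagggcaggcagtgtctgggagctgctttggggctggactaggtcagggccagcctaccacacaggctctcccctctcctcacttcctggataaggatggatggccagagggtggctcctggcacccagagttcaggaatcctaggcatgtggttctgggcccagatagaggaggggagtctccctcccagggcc
Tm4sf5 (chr11:70505024-70505243, plus strand): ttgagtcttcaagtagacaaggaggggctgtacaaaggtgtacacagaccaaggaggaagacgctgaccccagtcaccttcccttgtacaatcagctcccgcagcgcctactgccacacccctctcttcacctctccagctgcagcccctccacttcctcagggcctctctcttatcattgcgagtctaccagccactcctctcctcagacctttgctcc
None of the 6 motifs was found in more than 1 of the 5 windows of 250 bases. The Krt7 window, not shown because a GENCODE exon covers most of it, held 4 copies of GGGCGG, a motif that 32.7% of all 32851 windows of this length hold at least once. Krt8 held 1 AGATAA (9.99% of windows), Upk3b held 1 GGAATG read on its opposite strand (12.6%), and Krt18 and Tm4sf5 held none of the 6 motifs.

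Upk3b gave the most UMIs of the 8 genes in mesothelial cells (3′ tags, 1 per molecule, so not scaled by gene length). The mesothelial rule reads Upk3b, so this rank is partly set by the rule. In cells chosen by Tm4sf5 with Hpgd, the level of Upk3b was 305 (292 to 318), 359, 427 and 500.0 (468 to 534) CPM. Supporting cells held 3.24, 6.98, 9.02 and 45.2 CPM, interstitial cells 18.6, 25.5, 16.9 and 12.8 CPM, and germ cells 1.78 to 2.29 CPM. The mesothelial level stood above the other 3 classes at every stage. The smallest gap was to supporting cells at E14.5, a log2 ratio of 3.47 (3.29 to 3.64), and the widest in these 4 comparisons was 6.56 (6.27 to 6.86) at E11.5. The supporting class leaves out cells that met the mesothelial rule, which reads Upk3b, so part of this gap is set by the rule. With the whole mesothelial class the log2 ratio to supporting cells was 6.63 at E11.5 and 3.52 at E14.5, and where cells entered every class whose rule they met it was 4.40 and 1.73. Hpgd, which encodes the enzyme that inactivates prostaglandins and is the third gene of the rule, was at 143 to 160.0 CPM in mesothelial cells.

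Tm4sf5 was flatter over the stages than Upk3b. In cells chosen by Upk3b with Hpgd it measured 178 (169 to 188), 153, 204 and 225 (205 to 247) CPM. Supporting cells had 3.34, 3.56, 2.60 and 4.71 CPM, and interstitial cells 5.04 to 9.02 CPM. Its ratio to supporting cells ranged from 42.9 (34.7 to 53.5) at E12.5 to 78.6 (59.7 to 105) at E13.5. The rule sets part of this gap too: for the whole mesothelial class the log2 ratio was 5.53 and 6.29 at these 2 stages, and 3.47 and 2.94 where cells entered every class. From first to last stage the log2 ratio was 0.34 (0.18 to 0.49) for Tm4sf5 and 0.71 (0.60 to 0.83) for Upk3b, both under 2-fold.

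Upk1b, the tetraspanin partner gene among the uroplakins, gave the fewest mesothelial UMIs of the members other than Msln. Mesothelial cells had 23.8 (21.2 to 26.6), 29.4, 34.1 and 66.0 (57.7 to 75.1) CPM. In supporting cells the sums were 12, 25, 36 and 50 UMIs, or 0.389, 0.918, 1.70 and 5.89 CPM. Interstitial cells reached 1.06 to 3.41 CPM and germ cells at most 0.273 CPM. So the mesothelial values did not overlap those of any other class. The log2 ratio to supporting cells was 5.93 (5.11 to 6.90) at E11.5 and 3.49 (3.04 to 3.96) at E14.5. Where cells entered every class whose rule they met, it was 4.49 and 2.0.

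**Figure D1:**
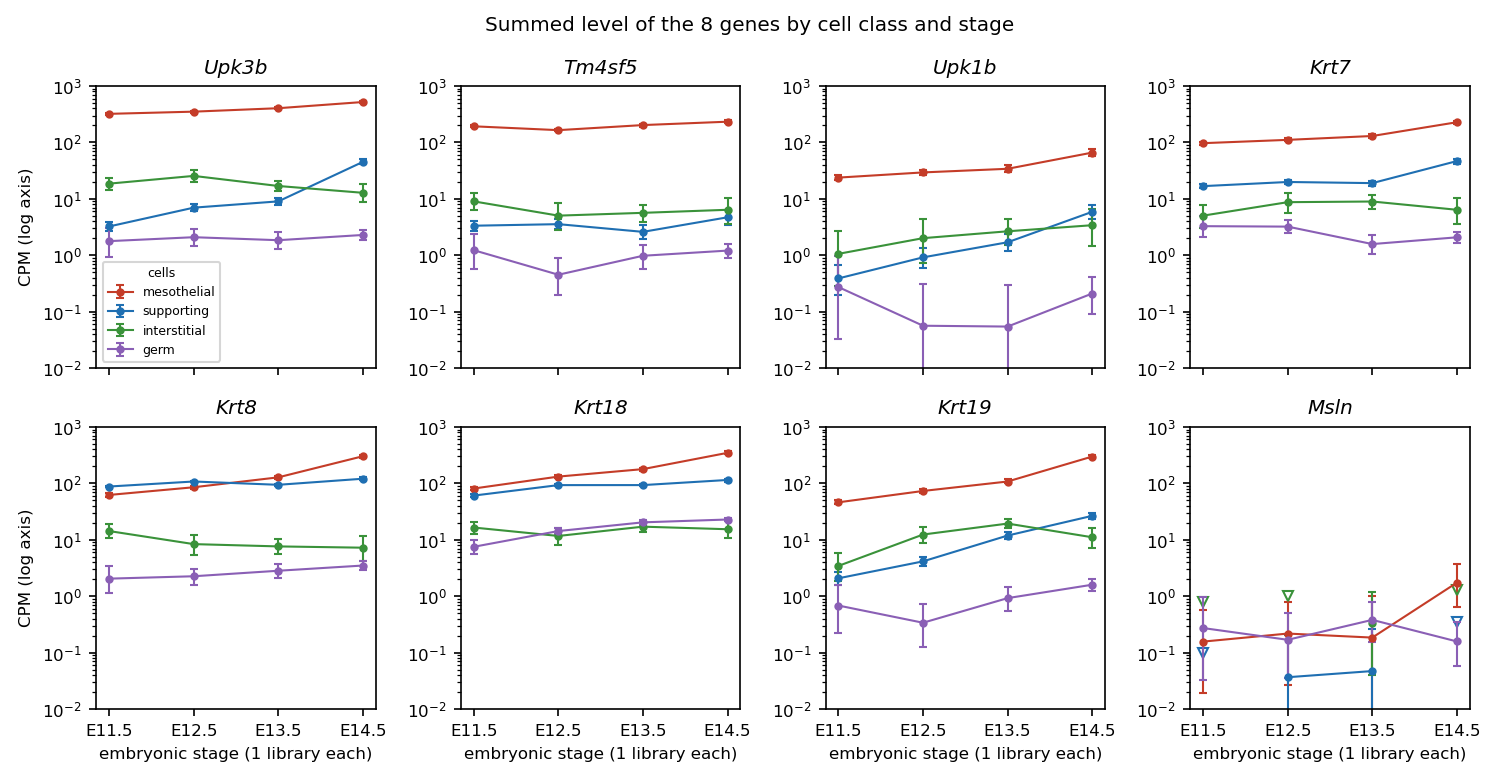
Summed level of each of the 8 genes in CPM (log axis) against embryonic stage, 1 library each, for mesothelial, supporting, interstitial and germ cells. Bars are exact 95% Poisson intervals, open triangles mark the limit of 3 counts where a class had 0 UMIs, and bars that run below the axis are cut there. Krt8 is the gene whose mesothelial and supporting lines cross, with 62.4 against 88.0 CPM at E11.5 and 303 against 121 CPM at E14.5. The mesothelial lines of Upk3b and Tm4sf5 use cells that the rule chose with these genes.

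Krt8 was lower in mesothelial than in supporting cells at first, and higher later. Mesothelial cells had 62.4 (58.2 to 66.9), 85.4 (79.5 to 91.6), 128 (118 to 137) and 303 (285 to 322) CPM. Supporting cells had 88.0 (84.7 to 91.3), 108 (104 to 112), 94.4 (90.3 to 98.6) and 121 (113 to 128) CPM. Supporting cells were thus above mesothelial cells at E11.5 and E12.5 and below them at E13.5 and E14.5, and the intervals did not overlap at any stage. The log2 ratio of mesothelial over supporting cells was -0.49, -0.34, 0.43 and 1.33. Only the last passed the size rule used here for calls: a ratio of at least 2, at least 50 UMIs over both sums, at least 20 CPM in the higher, and intervals that do not overlap. Interstitial cells had 14.3, 8.39, 7.64 and 7.25 CPM and germ cells 2.05 to 3.50 CPM, close to the 2.57 CPM of erythroid cells, which should lack keratins.

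Krt18, the type I partner of Krt8, was higher in mesothelial than in supporting cells at every stage. Its mesothelial level was 81.1 (76.2 to 86.2), 132, 179 and 348 (328 to 368) CPM. The supporting level was 60.8 (58.1 to 63.6), 93.2, 93.3 and 115 (107 to 122) CPM. As for Krt8, the first 3 ratios stayed under 2-fold, with log2 values of 0.41, 0.51 and 0.94, and the E14.5 ratio of 1.60 (1.48 to 1.73) was called. Interstitial cells held 11.7 to 17.1 CPM of Krt18. Supporting cells were above interstitial cells in both genes too, with log2 ratios of 2.62, 3.69, 3.63 and 4.06 for Krt8 and 1.89, 2.99, 2.45 and 2.90 for Krt18.

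Krt7 was higher in mesothelial than in supporting cells by a similar factor at each stage. Mesothelial cells had 97.0, 111, 130.0 and 228 CPM at the 4 stages and supporting cells 16.8, 19.9, 19.0 and 46.7 CPM. The log2 ratio was 2.53, 2.48, 2.77 and 2.29, with the last interval running from 2.11 to 2.47. In interstitial cells Krt7 was at 5.04 to 8.97 CPM, and in germ cells at 1.58 to 3.28 CPM, against 1.82 CPM in erythroid cells. The log2 ratio to interstitial cells was 4.27, 3.67, 3.86 and 5.15, and to germ cells 4.89, 5.11, 6.36 and 6.78.

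Of the 4 keratins, Krt19 had the largest ratio of the last over the first stage in mesothelial cells. Mesothelial cells had 46.2 (42.6 to 50.1), 73.4, 108 and 299 (281 to 318) CPM. Supporting cells had 2.08 (1.60 to 2.65), 4.15, 11.9 and 26.6 (23.3 to 30.3) CPM. Interstitial cells had 3.45, 12.4, 19.4 and 11.1 CPM, so their values stood above supporting cells at the first 3 stages. The interstitial value at E11.5 rests on 13 UMIs, and its interval overlaps that of supporting cells. The mesothelial level was the highest at each stage. The log2 ratio of mesothelial over supporting cells was 4.48, 4.14, 3.18 and 3.49. It was 3.62, 2.95, 2.32 and 1.79 where cells entered every class whose rule they met, and 4.98 at E14.5 against supporting cells without a UMI of Upk3b, Tm4sf5 or Hpgd.

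Msln was almost absent. Mesothelial cells gave 2, 2, 1 and 6 UMIs, at most 1.74 CPM (0.640 to 3.80), and supporting cells 2 UMIs over the 4 stages. Germ cells gave 2, 3, 7 and 6 UMIs, 0.158 to 0.381 CPM, so the low mesothelial counts before E14.5 could not be told from theirs at this depth. The gene met the minimum of the size rule in no comparison, and it is counted below as untested.

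Of the 6 members that no rule reads, 5 could be tested in each comparison of mesothelial cells with another class. Against supporting cells, 3 were called higher at each of the first 3 stages (Upk1b, Krt7 and Krt19), and 5 at E14.5, when Krt8 and Krt18 joined. Over all genes tested, the share called higher in mesothelial cells was 9.23%, 8.04%, 7.04% and 6.12% at the 4 stages. The median log2 ratio of the 5 members was 2.53, 2.48, 2.77 and 2.29, where that of all genes lay between -0.03 and 0.05. Against interstitial cells all 5 were called higher at each stage, beside 3.49%, 4.54%, 5.17% and 7.47% of all genes. Where cells entered every class whose rule they met, 4 were called at E12.5 and at E13.5. The log2 ratio of Upk1b was then 1.19, 1.00, 1.05 and 1.71 and that of Krt19 1.22, 1.06, 0.96 and 1.99, against 4.49, 3.87, 3.68 and 4.27 for Upk1b and 3.74, 2.56, 2.48 and 4.75 for Krt19 with 1 class per cell. Against germ cells all 5 were also called higher at each stage, but so were 28.8%, 25.8%, 25.0% and 25.0% of all genes.

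Against supporting cells, the entry of cells into every class left 3 instead of 5 members called higher at E14.5, with log2 ratios of 0.90 for Krt8, 1.00 for Krt18 and 1.39 for Krt7. That setting puts cells with both rules on both sides of the comparison. Markers of the other lineage were read in cells that met exactly 1 rule, not under that setting. In mesothelial cells the 5 supporting markers outside the rule summed to 156, 249, 305 and 344 CPM, with Foxl2 at 0. They summed to 482 to 618 CPM in supporting cells, with none at 0. Of these 5, Rspo1 is also on the list of mesothelial and coelomic genes used below. In supporting cells Kitl was at least 2-fold above the other 3 classes at every stage, and Nr0b1 at E11.5 and E12.5. Foxl2, Rspo1 and Fgfr2 were not so raised at any stage. The 7 mesothelial markers outside the rule summed to 31.5, 39.7, 49.2 and 80.6 CPM in supporting cells, none at 0, against 269 to 309 CPM in mesothelial cells. Their part in the result was not tested.

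**Figure D2:**
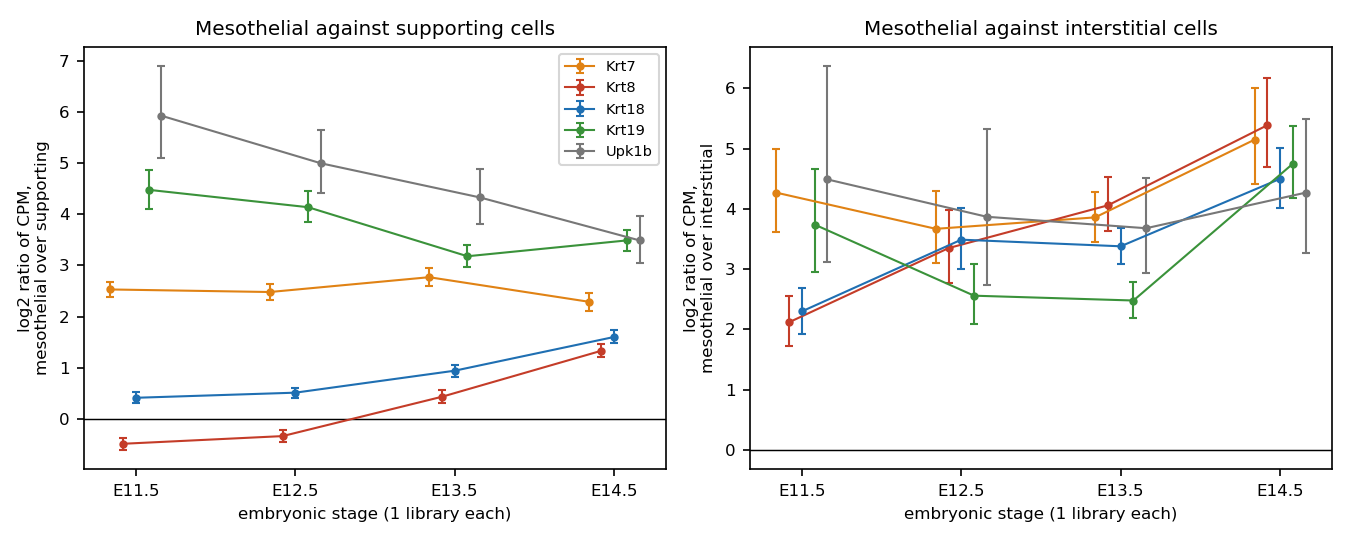
Log2 ratio of summed CPM in mesothelial cells over supporting cells (left) and over interstitial cells (right) by embryonic stage, 1 library each, for the 5 members that no class rule reads and that could be tested. Bars are exact 95% intervals from the split of the counts. On the left Krt8 crosses the line of no difference between E12.5 (-0.34) and E13.5 (0.43), while Upk1b moves from 5.93 to 3.49. On the right all values lie above 2.

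Across the stages, the mesothelial level of all 5 testable members was higher at the last stage than at the first. The log2 ratio was 1.23 (1.10 to 1.36) for Krt7, 1.47 (1.22 to 1.72) for Upk1b, 2.10 (1.98 to 2.22) for Krt18, 2.28 (2.15 to 2.42) for Krt8 and 2.69 (2.55 to 2.84) for Krt19. All 5 were called, beside 5.30% of all genes called higher in the same comparison. The median of the 5 was 2.10 and that of all genes tested was -0.06. For each of the 5 the last day brought the largest difference between neighbouring stages. Over that day Krt8 (1.25, 1.11 to 1.39) and Krt19 (1.46, 1.31 to 1.61) were called higher, beside 1.65% of all genes. Over the first day and the second 0 members were called, beside 1.16% and 0.654% of all genes.

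The mesothelial class changed in other ways over the same interval. Its share of kept cells went from 16.5% (15.5 to 17.6) to 6.86% (6.15 to 7.62). This share counts cells that met the mesothelial rule alone. Cells with both the mesothelial and the supporting rule went from 1.77% to 5.56% of kept cells. Those with both the mesothelial and the interstitial rule went from 1.5% to 0.959%. In the mesothelial class the share of cycling cells was 62.1%, 59.5%, 36.2% and 33.2%. Cycling cells were those with at least 2 of Mki67, Top2a, Cenpf, Ube2c and Birc5 at 5000 UMIs. Among cycling cells the log2 ratio of E14.5 over E11.5 was 2.26 for Krt8 and 2.64 for Krt19, and among non-cycling cells 2.05 and 2.45. All 5 members were called in each part, beside 5.34% and 5.33% of all genes. Within a stage, cycling cells were below non-cycling cells in Krt7, Krt8 and Krt18 at all 4 stages, by log2 values between -0.74 and -0.35. By the size rule 0 members were called lower in cycling cells, beside 0.289%, 0.141%, 0.706% and 1.26% of all genes.

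Erythroid transcripts also moved with stage. The 7 erythroid markers summed to 544, 137, 2340 and 5030 CPM in mesothelial cells, with 1 at 0 at E12.5 and none at the other stages. Erythroid cells themselves held 2.57 CPM of Krt8, 4.38 of Krt18, 1.82 of Krt7 and 0.855 of Krt19. With a common minimum of 9791 UMIs per cell in all libraries, the log2 ratio of E14.5 over E11.5 was 2.12 for Krt8.

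In supporting cells fewer members differed between the first and last stage. Of the 4 that could be tested, Krt19 (log2 ratio 3.68, 3.27 to 4.10) and Krt7 (1.48, 1.28 to 1.67) were called higher at E14.5, beside 6.21% of all genes. Krt8 differed by 0.46 (0.35 to 0.56) and Krt18 by 0.91 (0.80 to 1.03). Some supporting cells carried a UMI of Upk3b, Tm4sf5 or Hpgd, too few for the mesothelial rule. Supporting cells without any such UMI made up 87.7%, 87.4%, 87.0% and 75.0% of the class. In these, Krt19 was at 1.43, 3.11, 10.9 and 9.48 CPM, a log2 ratio of 2.73 from first to last stage, and was not called because it stayed under the minimum of 20 CPM. Krt7 was at 15.4 and 30.8 CPM at E11.5 and E14.5 and was called, so the count was 1 instead of 2. This way of choosing cells was added after the data had been seen.

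In interstitial cells none of the 6 members reached the minimum for a call between the first and last stage. Krt8 gave 54 UMIs at E11.5 and 17 at E14.5, a log2 ratio of -0.98 (-1.86 to -0.17). In germ cells Krt18 was called higher at E14.5, with a log2 ratio of 1.61 (1.21 to 2.03), but 22.7% of all genes were too. Median-of-ratios scaling shifts that germ cell value by -0.40.

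Krt18 in germ cells stood out from the other members there. Its level was 7.52 (5.67 to 9.79), 14.3, 20.4 and 22.9 (21.4 to 24.5) CPM. At equal depth of 5000 UMIs, 3.49%, 6.56%, 9.62% and 9.67% of germ cells had a UMI of Krt18, and 0.984% to 2.18% one of Krt8. Erythroid cells had a UMI of Krt18 in 1.98% of cells (0.801 to 4.04) at the same depth. Endothelial cells, over all stages, held 3.28 CPM of Krt18 (2.10 to 4.89) in 1.56% of cells. Immune cells held 8.37 CPM (4.79 to 13.6) in 3.57% of cells (0.982 to 8.89), so germ cells at E11.5 could not be told from them. At E14.5 germ cells were above erythroid cells in Krt18 by a log2 ratio of 2.66 (2.04 to 3.36), a called difference beside 28.7% of all genes, while for Krt8 the ratio was 0.43 (-0.34 to 1.31).

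Because KRT8 and KRT18 form filaments together, the ratio of their UMIs was compared within each class. The 3′ method counts 1 tag per molecule, so the ratio does not scale with gene length, although capture can differ between genes. Mesothelial cells had 1.30 (1.18 to 1.43), 1.55 (1.42 to 1.70), 1.40 (1.27 to 1.55) and 1.15 (1.05 to 1.25) UMIs of Krt18 per UMI of Krt8. Supporting cells had 0.691 (0.652 to 0.734), 0.862 (0.817 to 0.909), 0.988 (0.928 to 1.05) and 0.949 (0.869 to 1.04). Mesothelial cells were above supporting cells at each stage, and the intervals closed in on each other by E14.5. Germ cells had 3.67 (2.04 to 6.99), 6.33, 7.19 and 6.55 (5.45 to 7.92), the highest values of the 4 classes. Erythroid cells, with 2 to 15 UMIs of Krt8 per stage, had 1.40 to 3.00 with wide intervals.

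**Figure D3:**
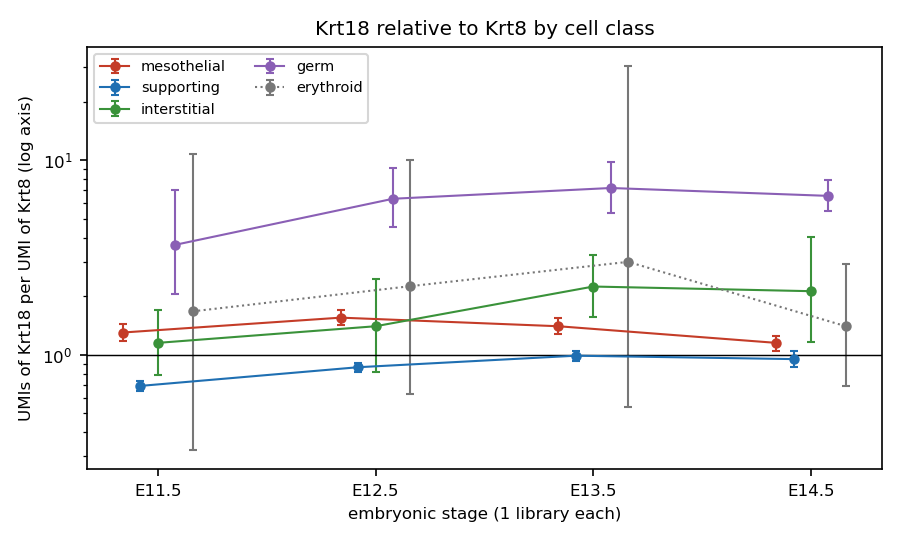
UMIs of Krt18 per UMI of Krt8 (log axis) by embryonic stage, 1 library each, in mesothelial, supporting, interstitial and germ cells and, dotted, in erythroid cells as a background. Bars are exact 95% intervals. Germ cells lie between 3.67 and 7.19, mesothelial cells between 1.15 and 1.55, and supporting cells between 0.691 and 0.988.

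Krt19 per Krt8 separated the same classes more widely. There were 0.740, 0.860, 0.850 and 0.985 UMIs of Krt19 per UMI of Krt8 in mesothelial cells, against 0.0236, 0.0384, 0.127 and 0.221 in supporting cells. Interstitial cells had 0.241, 1.48, 2.54 and 1.53, on 17 to 54 UMIs of Krt8. Their intervals held 1 at E12.5 (0.867 to 2.56) and E14.5 (0.799 to 3.00). For Krt18 per Krt8, interstitial cells had 1.15 (0.784 to 1.69), 1.40 (0.814 to 2.44), 2.24 (1.57 to 3.24) and 2.12 (1.16 to 4.02).

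Cells that met 2 rules were described apart from the classes above. There were 85, 179, 240 and 261 cells with both the mesothelial and the supporting rule, and 72, 75, 102 and 45 with both the mesothelial and the interstitial rule. Their median UMIs were 10821 to 17516 and 12037 to 14691.5, and their median doublet scores 0.0272 to 0.0507 and 0.0293 to 0.0421, where mesothelial cells had 0.0235 to 0.0272. The part of depth and of doublets in the values below was not tested.

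For Krt8, Krt18, Krt19 and Upk1b the 2 kinds of cells lay on opposite sides of the mesothelial class. For Krt8, cells with the supporting rule had 88.7, 116, 149 and 330.0 CPM, mesothelial cells 62.4, 85.4, 128 and 303 CPM, and cells with the interstitial rule 33.5, 30.5, 38.1 and 117 CPM. For Upk1b the order was turned: 13.1, 11, 19.0 and 38.6 CPM with the supporting rule, and 41.2, 47.4, 72.0 and 75.0 CPM with the interstitial rule. Krt18 was ordered as Krt8 at each stage. Krt19 followed Upk1b, with 33.1, 57.1, 61.5 and 237 CPM against 70.4, 103, 202 and 318 CPM. Some of these gaps were small: at E14.5 the 75.0 CPM of Upk1b with the interstitial rule rested on 45 UMIs, against 66.0 CPM in mesothelial cells. Krt7 did not show this order: it was at 102, 96.7, 116 and 189 CPM with the supporting rule and at 99.5, 71.1, 121 and 153 CPM with the interstitial rule, so both kinds were on the same side of the mesothelial class at each stage.

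By the size rule, Krt8 was called lower in the cells with the interstitial rule than in mesothelial cells at the last 3 stages, with log2 ratios of -1.49, -1.74 and -1.38. The share of all genes called lower there was 0.756%, 1.86% and 2.75%. Krt18 was called lower at E13.5 (-1.28) and E14.5 (-1.64), and Upk1b higher at E13.5 (1.08, 0.71 to 1.43), beside 2.68% of genes called higher. In the cells with the supporting rule 1 member was called, Upk1b at E12.5 (-1.42, -1.97 to -0.90), beside 0.563% of genes called lower. The other differences of the members that no rule reads did not meet the size rule in these cells.

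**Figure D4:**
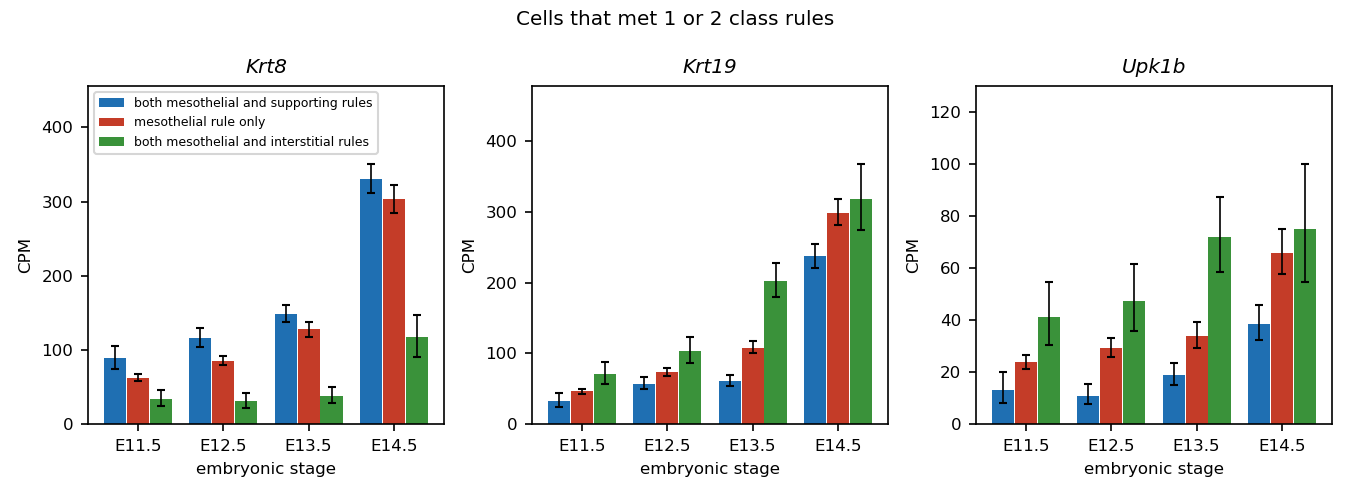
Summed CPM of Krt8, Krt19 and Upk1b by embryonic stage, 1 library each, in cells that met both the mesothelial and the supporting rule, the mesothelial rule alone, or both the mesothelial and the interstitial rule. Bars start at 0 and carry exact 95% Poisson intervals. Within each stage Krt8 is lowest in the cells with the interstitial rule, and Krt19 and Upk1b are highest there, as at E13.5 with 61.5, 108 and 202 CPM of Krt19.

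Single cells were compared at an equal depth of 5000 UMIs, and no cell was too shallow. The share of mesothelial cells with a UMI of Krt8 was 26.1%, 32.1%, 40.8% and 67.4%, and of Krt18 31.7%, 45.5%, 50.7% and 69.3%. Without thinning the shares of Krt8 were 54.9%, 61.5%, 65.0% and 83.9%. Krt19 went from 16.7% to 61.2% of cells, Krt7 from 33.7% to 62.4% and Upk1b from 11.7% to 25.2%. Shares in erythroid cells, the background, were 1.13% for Krt8, 1.98% for Krt18, 0.283% for Krt19, 0.567% for Krt7 and 0.283% for Upk1b, at a median of 25626 UMIs before thinning.

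Both partners of the Krt8 and Krt18 pair were seen in 9.47% (7.52 to 11.7), 17.8%, 24.6% and 51.6% (45.9 to 57.1) of mesothelial cells. If the 2 genes were detected independently, the shares would be 8.28%, 14.6%, 20.7% and 46.7%. In supporting cells both were seen in 9.59%, 15.2%, 15.3% and 20.9%, where independence gives 7.79%, 12.8%, 13.3% and 16.7%. The observed share was above the product in both classes at each stage, but in mesothelial cells the interval held the product at each stage other than E12.5. For Krt8 with Krt19, also a type II and a type I chain, the mesothelial share was 4.80%, 6.26% (4.51 to 8.43), 14.6% and 40.7% (35.3 to 46.3). The product was 4.36%, 7.58%, 14.3% and 41.2%, so the share was nominally below it at E12.5 and E14.5. For Krt7 with Krt19 the mesothelial shares were 6.69%, 9.70%, 18.1% and 41.3%, against products of 5.62%, 8.91%, 14.6% and 38.2%. In both of these pairs the interval of the share held the product at each stage.

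Counting Upk1b and the 4 keratins per cell gives the spread of the programme. At E11.5, 27.4% of mesothelial cells had a UMI of none of the 5 at this depth, and 10.2% had at least 3. At E14.5, 2.48% had none and 62.1% had at least 3. Among supporting cells 50.1% had none at E11.5 and 33.3% at E14.5, and 9.83% had at least 3 at E14.5. Interstitial cells had none in 87.2% and 89.9% of cells at these stages, and germ cells in 92.1% and 87.6%.

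**Figure D5:**
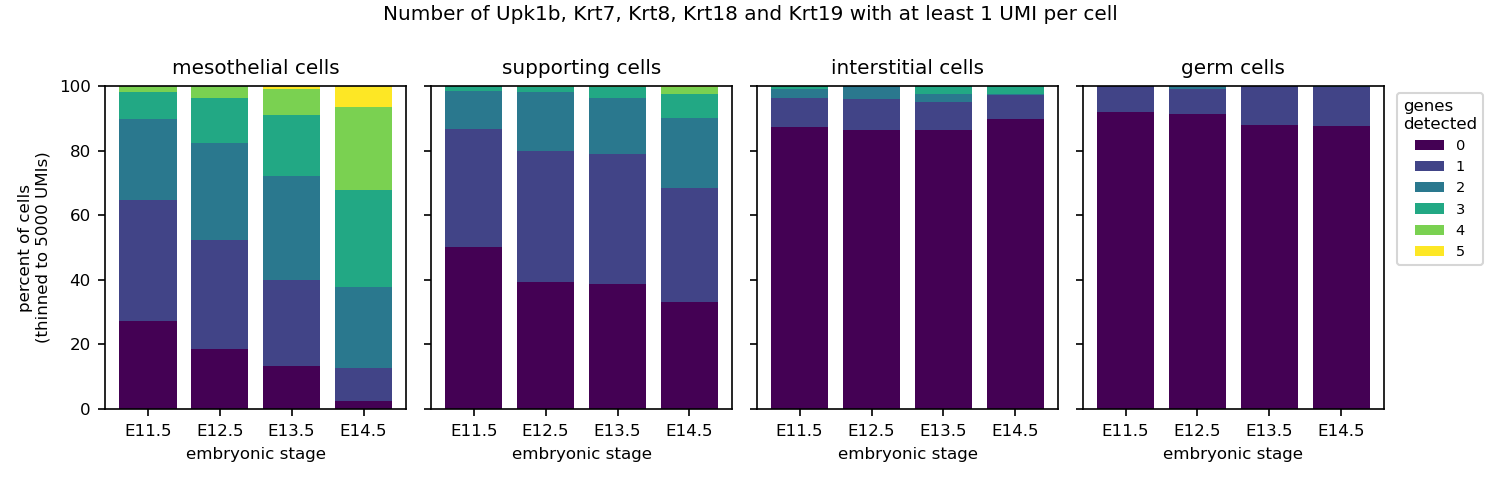
Percent of cells (0 to 100) with a UMI of 0, 1, 2, 3, 4 or 5 of the genes Upk1b, Krt7, Krt8, Krt18 and Krt19, after thinning each cell to 5000 UMIs, by stage and class, 1 library per stage. In mesothelial cells the part with 0 genes is 27.4% in the first library and 2.48% in the last, and in germ cells it stays between 87.6% and 92.1%.

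Other keratins were few. Of 11 listed, 8 were in the table, and 2 met the minimums between mesothelial and supporting cells at E14.5. Krt14, a type I keratin of basal epithelial cells, was called higher there, at 39.5 against 1.41 CPM (log2 ratio 4.81, 3.95 to 5.79), in a comparison where 6.12% of all genes were. Its mesothelial level was 11.7 (9.87 to 13.7), 14.3, 19.3 and 39.5 (33.2 to 46.8) CPM, and the last over the first was called too. Krt10, a keratin of stratified epithelium, was at 47.9 against 36.4 CPM at E11.5 and at 35.5 against 39.1 CPM at E14.5, and was not called at either stage. Krt20, an intestinal and urothelial keratin, and Krt17, a type I keratin of hair follicles and injured skin, stayed below the minimum. Krt17 was at 0.862, 2.51, 5.01 and 18.6 CPM in mesothelial cells and at most 0.589 CPM in supporting cells.

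Of 10 further uroplakin and tetraspan genes, 8 were in the table and Tspan13 alone could be tested between mesothelial and supporting cells at E14.5. It stood at 10.8 against 20.7 CPM and was not called, where 6.12% of all genes were called higher and 6.19% lower. Tm4sf1, of the same family as Tm4sf5, was at 1.85, 7.42 and 17.1 CPM in mesothelial cells at the last 3 stages, and Tspan8 at 0.872 to 9.88 CPM. Upk2, a further uroplakin, had 0 UMIs in mesothelial cells at each stage, which allows at most 0.235 to 0.872 CPM, and 0.957, 2.43, 6.92 and 8.04 CPM in germ cells. Within mesothelial cells Tspan13 had been at 24.0 CPM at the first stage and was called lower at the last, a log2 ratio of -1.16 (-1.69 to -0.67), beside 2.07% of all genes called lower.

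The list of 19 mesothelial and coelomic genes was fully in the table, and 14 could be tested against supporting cells at E14.5. Of these 6 were called higher, beside 6.12% of all genes, with a median log2 ratio of 0.70. Lhx9, a homeobox gene needed to form the gonad, was at 469 against 196 CPM and was called. Igfbp5 was at 382 against 180.0 CPM and was called as well. Wt1 (432 against 370.0 CPM) and Emx2 (171 against 168 CPM), both needed for the early gonad, were not called. Between E11.5 and E14.5 in mesothelial cells, 2 of 14 testable genes of this list were called higher and 0 lower, beside 5.30% and 2.07% of all genes, with a median log2 ratio of 0.02. Aldh1a2, Lrrn4 and Bnc1, named after their values had been seen, differed by -0.04, 0.16 and -0.13 over that interval. They are the 3 of the 7 markers outside the rule that were raised at every stage. Muc16 was raised from E13.5 on and Gpm6a at E14.5 alone, so these 3 do not stand for all 7.

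Of 16 junction and polarity genes, 5 could be tested against supporting cells at E14.5, of which 2 were called higher, beside 6.12% of all genes. Epcam, an epithelial adhesion molecule, was at 25.6 against 11.1 CPM and was called. Tjp1 (39.5 against 58.4 CPM), Cdh2 (39.8 against 49.6 CPM) and Jup (20.9 against 22.3 CPM), which encode a tight junction scaffold, N-cadherin and plakoglobin, were not called. Between E11.5 and E14.5 in mesothelial cells 0 of the 5 testable genes were called, beside 5.30% of all genes called higher and 2.07% lower.

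Among other intermediate filament proteins and keratin partners, 4 of 8 genes present could be tested at E14.5, and Lmnb1, the lamin B1 gene, was called higher than in supporting cells (151 against 54.2 CPM), beside 6.12% of all genes. Vim, the vimentin of mesenchymal and many embryonic cells, was called lower in mesothelial than in supporting cells at E11.5, at 363 against 784 CPM (log2 ratio -1.11, -1.16 to -1.06), beside 10.8% of all genes. At E14.5 it was at 391 against 596 CPM and was not called. Lmna and the cytoskeletal linker Plec were not called at E11.5 or E14.5. Between E11.5 and E14.5 none of these 4 genes was called in mesothelial cells, against the same 5.30% and 2.07% of all genes.

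Genes with the pattern most like the members were ranked by Pearson correlation, over the 16 class and stage profiles, with the mean of the 6 members no rule reads, on the log2(CPM + 5) scale. Of 8165 genes ranked, the 10 highest were Cfap161 (0.976), Zfp185 (0.971), Vsnl1 (0.970), Irf5 (0.969), Ppp2r2b (0.960), Baiap2l1 (0.957), 2900011O08Rik (0.954), Anxa1 (0.954), Kcnip1 (0.945) and Gpd2 (0.943). Cfap161 ran from 46.2 to 85.4 CPM in mesothelial cells and from 4.90 to 20.3 CPM in supporting cells. Anxa1, the gene of a calcium-dependent membrane-binding protein, ran from 7.21 to 31.4 CPM and from 1.39 to 10.8 CPM. The profiles share libraries and are not independent. The members themselves had values from 0.988 for Krt7 through 0.944 for Krt18, 0.929 for Krt19, 0.921 for Upk1b and 0.906 for Krt8 to 0.503 for Msln, and each of these 6 is part of the mean. Upk3b had 0.897 and Tm4sf5 0.865.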

How the data were processed

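Values in the deposited table are on a natural log scale: each is ln(1 + x), where x is a gene's share of its cell's UMIs times 10000. This was read from the numbers, since no header states it. Per the submitters' processing notes, Cell Ranger 2.2.0 and the mm10 build were used, and the annotation, cell calling and filters are not given in the sources used here. The plan had assumed counts. Whole UMI counts were recovered: 100% of the values above 0 came out whole within 1e-06 of their size. Cell name prefixes gave the stage, and 0 columns were unmatched.

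Cells with over 20% mitochondrial UMIs (5 cells) and doublets called per library with Scrublet in scanpy 1.11.5 (414 cells, 2.14%) were left out. UMIs were summed per class and library, divided by the summed total to give CPM, and given exact Poisson, binomial (Clopper-Pearson) or binomial-split 95% intervals (scipy 1.17.1, numpy 2.4.6, pandas 2.3.3). Libraries held 69458291 to 80377418 UMIs. Shares of cells were taken after thinning each cell to 5000 UMIs. The size rule was run on simulated Poisson counts, the model its own intervals assume. That run cannot show how the rule behaves with variation between cells or libraries. Classes follow the rules given in the text.

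The members, lists and class rules were chosen with earlier results of these data known. The 8 members and Hpgd are named whatever their values, each related list through its 4 members with the most UMIs, and the genes most like the members as the 10 highest correlations. Alternatives were other scaling, another summary over cells, other class rules, doublets kept, a common minimum of UMIs, no minimums, a ratio of 4 and other thinning depths.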

Additional observations from a re-analysis of the deposited data

Results flagged for a closer look

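The level of Krt8 in mesothelial over supporting cells changed direction between stages. In stage order the log2 ratio was -0.49, -0.34, 0.43 and 1.33, with intervals that leave out 0 each time. The difference between stages was not tested, since each stage is 1 library. Over 10 alternatives the sign held at each stage. The values ran from -0.57 to -0.46, from -0.35 to -0.23, from 0.27 to 0.62 and from 0.90 to 1.54. Among the 10, the settings with no minimums and with a ratio of at least 4 cannot change a log2 ratio or its sign.

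Krt8 also differed in direction between classes over the same interval. The log2 ratio of the last over the first stage was 2.28 in mesothelial cells, 0.46 in supporting cells, 0.77 in germ cells and -0.98 in interstitial cells. The difference between classes was not tested. The interstitial value rests on 54 and 17 UMIs and the germ cell value on 15 and 133 UMIs.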

How the results depend on the processing

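Of 140 recomputed counts of called members, 135 stayed within 1.5 times the reported count and 5 moved. Where cells entered every class whose rule they met, 3 members instead of 5 were called higher in mesothelial than in supporting cells at E14.5. A ratio of at least 4 gave 3 there, 3 instead of 5 between E11.5 and E14.5 in mesothelial cells, and 1 instead of 2 in supporting cells. Supporting cells without a UMI of Upk3b, Tm4sf5 or Hpgd, an alternative added after the data had been seen, also gave 1. Of 1068 log2 ratios, 919 stayed within the reported interval and 149 moved. The 919 include 106 with no minimums and 106 with a ratio of at least 4. These settings change calls alone and cannot move a log2 ratio. An alternative that changes 1 class alone cannot move ratios or counts in which that class has no part. This holds for supporting cells without a UMI of Upk3b, Tm4sf5 or Hpgd, and for a mesothelial class with all 3 of these genes. Such fixed values are among the 919 ratios and the 135 counts. Of the called ratios, 0 changed sign. Msln, which was never called, did so for mesothelial over germ cells: 0.36 became -0.05 at E12.5 with called doublets kept, and -1.04 became 0.76 at E13.5 where cells entered every class. Entry into every class moved 74 of them, and the Upk1b ratio to supporting cells at E11.5 was then 4.49 instead of 5.93. Median-of-ratios scaling shifted all log2 ratios by -0.40 and -0.24 for mesothelial over germ cells at E11.5 and E12.5, by 0.11 over supporting cells at E13.5, and by 0.13 between the end stages in interstitial cells. A common minimum of 9791 UMIs left 4484, 4737, 3099 and 3590 cells. No paired analysis was possible because each stage has 1 library. Low counts limit what can be said of Msln in every class.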
